A study of Mus musculus with 34 samples.

Results

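The genes described here are 10 genes of bone morphogenetic protein (BMP) signaling, chosen by name: *Id1*, *Id2*, *Id3*, *Id4*, *Msx1*, *Msx2*, *Smad1*, *Smad5*, *Smad6* and *Smad7*. All 10 are called BMP response genes below, although *Smad1* and *Smad5* carry the signal rather than read it out. They were found by gene symbol among the 22040 protein-coding genes of the table, and the rule used names only, not measured values. RNA was sequenced from E11.5 mouse limb buds of 3 WT and 3 CKO biological replicates. The CKO embryos were *Prrx1-Cre;Hnrnpk fl/fl*, in which Cre driven by the *Prrx1* promoter deletes part of the *Hnrnpk* exons in limb bud mesenchyme and in the calvarium, but not in the apical ectodermal ridge. The WT group carries the label Hnrnpk WT, and its Cre and floxed alleles are not given in the sources used here, nor is the share of forelimbs and hindlimbs in a library. Embryos of both sexes were used.

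BMP ligands bind a pair of serine/threonine kinase receptors, which phosphorylate the receptor-regulated Smads, among them Smad1 and Smad5. These join Smad4, enter the nucleus and switch on target genes, of which the Id genes and the Msx homeobox genes are the most widely used read-outs. Smad6 and Smad7 are inhibitory Smads that the pathway itself induces and that block the receptors or the receptor-regulated Smads. In the limb bud, BMP signaling is known for its part in digit patterning, interdigital cell death, cartilage formation and regression of the ectodermal ridge.

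Most BMP response genes differed between WT and CKO limb buds by no more than the spread between libraries. None of the 10 passed the test on all 6 libraries as separate samples, at a limma adjusted *p* value under 0.05, where 0.0650% of the 12305 tested genes did. *Id4* was the exception once the libraries were compared within their replicate numbers, with a limma adjusted *p* value of 0.0278 with the replicate number as a block. In that fit 2.81% of all tested genes passed, and no label says that the numbers pair the libraries. The values set replicate 1 of both groups apart but did not tell which libraries numbered 2 and 3 belong together. The FPKM of *Id4*, a level scaled to gene length and library size, averaged 4.05 ± 0.362 in WT and 2.33 ± 0.891 in CKO limb buds (both SD, n = 3). The CKO mean was 57.6% of the WT mean. *Id4*, *Smad6* and *Id1* had all their CKO values below all their WT values. This was 3 of 10 genes, against 8.86% of all tested genes that lay lower in CKO without overlap. Over all 10 genes the median log2 difference between CKO and WT was -0.11, with 8 lower and 2 higher, and the median over all tested genes was 0.0048. Without CKO replicate 2 the median of the 10 genes turned to 0.0072, and without CKO replicate 1 it was -0.22.

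All 10 genes passed the filter on low values (0.5 FPKM as the mean of all libraries) and were tested on log2(FPKM + 0.1), a scale that understates the changes of low genes. Between 130 and 373 reads stood behind *Id4*, the lowest of them, and between 3852 and 7072 behind *Id1*, the highest. The shallowest library had 17140869 reads on the listed genes and the deepest 24624434. As a check of the labels, *Hnrnpk* had an FPKM of 193, 195 and 185 in WT replicates 1, 2 and 3, and of 127, 142 and 135 in the CKO replicates, lower in all 3. The log2 difference was -0.50 (standard error 0.13), and limma gave an adjusted *p* value of 0.334, or 0.0575 after blocking on replicate number. The value covers the whole gene and so includes exons that are not deleted. The first principal component, with 52.6% of the variance, set replicate 1 of both groups apart from the other 4 libraries, and the red cell genes *Hbb-y*, *Hba-x* and 8 others made up between 11.9% and 32.6% of the summed FPKM. The libraries of whole limb buds mix cell types, so fewer cells of a type and less RNA per cell cannot be told apart.

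**Figure D1:**
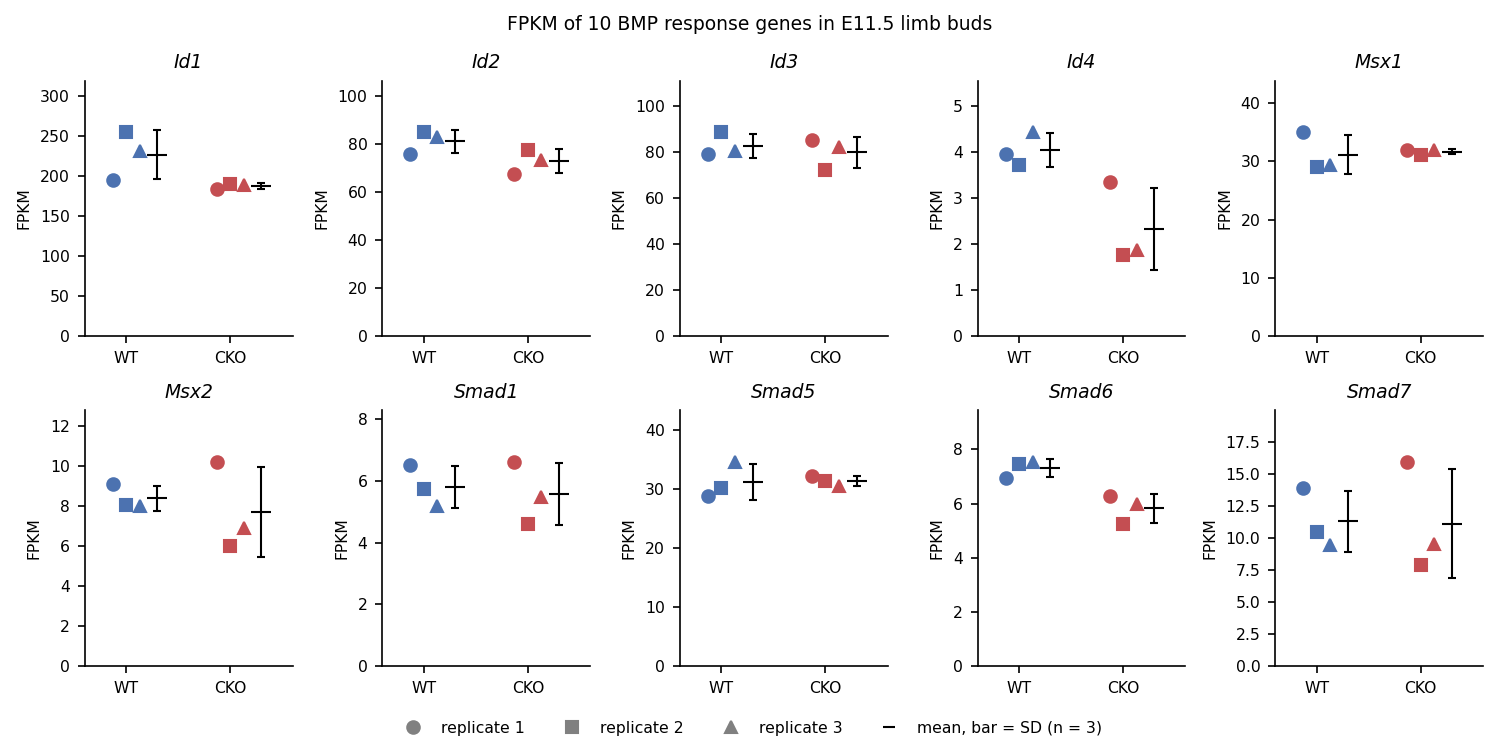
FPKM of the 10 genes (one panel each, linear axis from 0) in the 3 WT and 3 CKO libraries, with the replicate number shown by the shape of the point and the mean and SD (n = 3) in black. The CKO points of *Id1*, *Id4* and *Smad6* lie below all WT points, while replicate 1 is the highest library of its group for *Msx1*, *Msx2*, *Smad1* and *Smad7*.

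The Id genes encode helix-loop-helix proteins without a DNA-binding region, which hold E proteins and other partners away from DNA and so keep cells from differentiating. All 4 had a lower mean in CKO, with a median log2 fold change of -0.21. Their summed FPKM was 353, 432 and 398 in WT replicates 1 to 3, against 340, 342 and 345 in the CKO replicates. The groups did not overlap, and *Id1* was the largest part of it in each library.

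*Id4* (ENSMUSG00000021379) lies on the plus strand of chromosome 13 at positions 48261228 to 48266026 in GRCm38. Replicates 1, 2 and 3 of WT gave an FPKM of 3.96, 3.73 and 4.44. In the CKO replicates it was 3.36, 1.76 and 1.87. All CKO values were below all WT values, but CKO replicate 1 lay much closer to WT than the other two did. The log2 fold change was -0.83 (standard error 0.24, 95% interval -1.39 to -0.26), with a limma *p* value of 0.0099 before and 0.409 after adjustment over all genes, and an exact two-sided permutation *p* value of 0.1, the smallest that 3 libraries against 3 allow. With the replicate number as a block the standard error was 0.18, the 95% interval -1.21 to -0.44 and the limma adjusted *p* value 0.0278, a threshold that 2.81% of all tested genes passed and 1.68% passed as lower in CKO. Between the libraries numbered 1, 2 and 3, *Id4* differed by -0.23, -1.04 and -1.20 on the log2 scale. Without CKO replicate 1 its log2 fold change was -1.11 (limma adjusted *p* = 0.0491), and over all 18 alternative settings it stayed between -1.12 and -0.63. The limma adjusted *p* values ran from 3.6e-06 (replicates 2 and 3 alone) to 0.999953 (without CKO replicate 3). The lowest came from 2 libraries a group, a split added after the data were seen. The *Id4* exons share 82 and 171 bases with a pair of non-coding genes on the opposite strand, and whether the counting used the strand is not given in the sources used here.

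*Id1* (ENSMUSG00000042745, chromosome 2 from 152736251 to 152737410), the standard read-out of BMP activity in cell culture, was the most abundant of the 10 genes and ranked 146 of the 12305 tested genes by mean FPKM. Its FPKM was 194, 255 and 231 in WT replicates 1 to 3, against 183, 190.1 and 188 in the CKO replicates. The CKO libraries lay close together (187 ± 3.40, SD, n = 3), whereas WT spread more widely (227 ± 30.4, SD, n = 3), and WT replicate 1 was only just above the highest CKO value. The log2 fold change was -0.27 (standard error 0.15, 95% interval -0.62 to 0.09, limma adjusted *p* = 0.710).

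*Id2* and *Id3* had nearly equal levels, with ranges that overlapped and *Id3* the higher in 4 of 6 libraries. *Id2* (ENSMUSG00000020644) had 75.9, 85.1 and 82.8 in WT and 67.6, 77.6 and 73.2 in CKO, and CKO replicate 2 was above WT replicate 1, so the groups overlapped. It was lower in CKO within each replicate number, by nearly the same amount (-0.17, -0.13 and -0.18 on the log2 scale). That evenness depends on the numbering, which no label gives as a pairing. With replicates 2 and 3 crossed, 77.6 stands against 82.8 and 73.2 against 85.1, which is less even. The 95% interval of the *Id2* log2 fold change of -0.16 included 0 (-0.44 to 0.12). The limma adjusted *p* value was 0.807 without and 0.473 with the replicate block. *Id3* (ENSMUSG00000007872) had 79.0, 88.7 and 80.4 in WT and 85.2, 72.3 and 82.1 in CKO, with the highest CKO value above 2 of the WT values. Its log2 fold change was -0.05 (95% interval -0.35 to 0.24, limma adjusted *p* = 0.943). The genes lower in CKO within all 3 numbers were *Id1*, *Id2*, *Id4* and *Smad6*, 4 of 10, against 21.3% of all tested genes.

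Promoter sequence is shown for *Id4* and *Smad6*, the members whose CKO level was lowest relative to WT, and for *Id2*, which overlapped between groups. RefSeq windows on GRCm38.p6, from 250 bases before to 50 after a transcript start, were found for 8 of the 10 genes, in 10 windows, and none was found for *Id1* and *Smad7*. A GC-rich element read by BMP-activated Smads, GGCGCC, which is its own reverse complement, occurs in 11.9% of the 32851 promoter windows of all genes. It was found in windows of *Id2*, *Id4* and *Smad5*. The 10 windows held 60% to 73.3% G and C, against a median of 52.7% over all windows. The element GTCTG, searched also as its reverse complement CAGAC, contains the short Smad-binding sequence and does not overlap with the first. It occurs in 49.6% of all windows and was found in those of *Id3* and *Smad5*. Neither was in the *Smad6* window. The stretches read 5′ to 3′ on the strand of the gene, with GGCGCC in capitals, and lie at chr13:48260916-48261015 (plus strand, first base -200 from the start) for *Id4*, chr12:25096243-25096342 (minus strand, first base -250) for *Id2* and chr9:64022060-64022159 (minus strand, first base -100) for *Smad6*:
Id4: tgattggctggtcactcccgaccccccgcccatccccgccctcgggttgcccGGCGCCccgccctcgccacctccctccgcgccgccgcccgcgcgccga
Id2: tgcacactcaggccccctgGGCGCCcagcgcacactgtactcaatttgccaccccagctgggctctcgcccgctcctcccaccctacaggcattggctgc
Smad6: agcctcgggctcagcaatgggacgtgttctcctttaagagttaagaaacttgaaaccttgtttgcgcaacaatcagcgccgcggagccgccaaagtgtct
The GGCGCC match begins at position -148 from the start in *Id4* and at position -231 in *Id2*. A match of these letters describes the window and is not a binding site by itself, and *Id2* and *Smad5*, which also had one, overlapped between the groups.

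The Msx homeobox genes encode transcriptional repressors that BMP signaling induces in limb mesenchyme, ridge and interdigital tissue. *Msx1* (ENSMUSG00000048450) had an FPKM of 35.0, 29.0 and 29.3 in WT replicates 1, 2 and 3, and of 32.0, 31.1 and 31.9 in the CKO replicates. All CKO values lay within the WT range, and the log2 fold change was 0.03 (standard error 0.12, 95% interval -0.25 to 0.31, limma adjusted *p* = 0.966). *Msx2* (ENSMUSG00000021469) was lower in level, with 9.10, 8.05 and 7.98 in WT and 10.2, 5.97 and 6.89 in CKO. Here the CKO group held both the highest and the lowest value, with replicate 1 above and replicates 2 and 3 below all WT libraries. The log2 fold change of *Msx2* was -0.16 (standard error 0.20, 95% interval -0.62 to 0.30, limma adjusted *p* = 0.882), and without CKO replicate 1 it was -0.38 (limma adjusted *p* = 0.193).

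The receptor-regulated Smads carry the signal itself, and neither transcript differed between groups beyond the spread between libraries. *Smad5* (ENSMUSG00000021540) had 28.8, 30.1 and 34.6 in WT replicates 1 to 3, against 32.2, 31.4 and 30.4 in the CKO replicates. The CKO values lay inside the WT range, with a log2 fold change of 0.01 (standard error 0.12, 95% interval -0.26 to 0.28, limma adjusted *p* = 0.987). *Smad1* (ENSMUSG00000031681) was much lower in level and had 6.51, 5.73 and 5.18 in WT and 6.63, 4.62 and 5.47 in CKO, and its groups overlapped (log2 fold change -0.07, 95% interval -0.45 to 0.32, limma adjusted *p* = 0.944).

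Of the inhibitory Smads, *Smad6*, the more selective for BMP receptors, had lower values in all CKO libraries, and *Smad7*, which also blocks TGF-β signaling, overlapped between the groups. *Smad6* (ENSMUSG00000036867, chromosome 9 from 63953076 to 64022059) had an FPKM of 6.94, 7.46 and 7.55 in WT replicates 1, 2 and 3, and of 6.27, 5.23 and 5.98 in the CKO replicates. The CKO mean of 5.83 ± 0.538 (SD, n = 3) was 79.7% of the WT mean of 7.32 ± 0.329 (SD, n = 3), and the groups did not overlap. *Smad6* had a log2 fold change of -0.33 and a 95% interval of -0.61 to -0.04 (standard error 0.12), with a limma *p* value of 0.0283 before adjustment, where 8.31% of all tested genes were under 0.05 and 5.46% were so as lower in CKO, 0.550 after it and 0.160 with the replicate block. Replicates 2 and 3 alone, 2 libraries a group, were compared only after the data were seen. This left out the CKO library nearest to WT for both *Smad6* and *Id4*, and for *Smad6* also the WT library nearest to CKO (6.94). There *Smad6* had a log2 fold change of -0.42 (limma adjusted *p* = 0.0288) and *Id4* one of -1.12 (limma adjusted *p* = 3.6e-06). In that comparison 15.0% of all tested genes passed, and 8.00% passed as lower in CKO, against these 2 of the 10 genes.

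*Smad7* (ENSMUSG00000025880) had 14.0, 10.5 and 9.45 in WT replicates 1 to 3, against 16.0, 7.90 and 9.52 in the CKO replicates. The libraries followed the replicate number more than the genotype, with both libraries numbered 1 above all others. The log2 fold change between genotypes was -0.07 with the widest interval of the 10 genes without the block (standard error 0.27, 95% interval -0.69 to 0.55, limma adjusted *p* = 0.967). With the block the interval narrowed to -0.34 to 0.20.

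**Figure D2:**
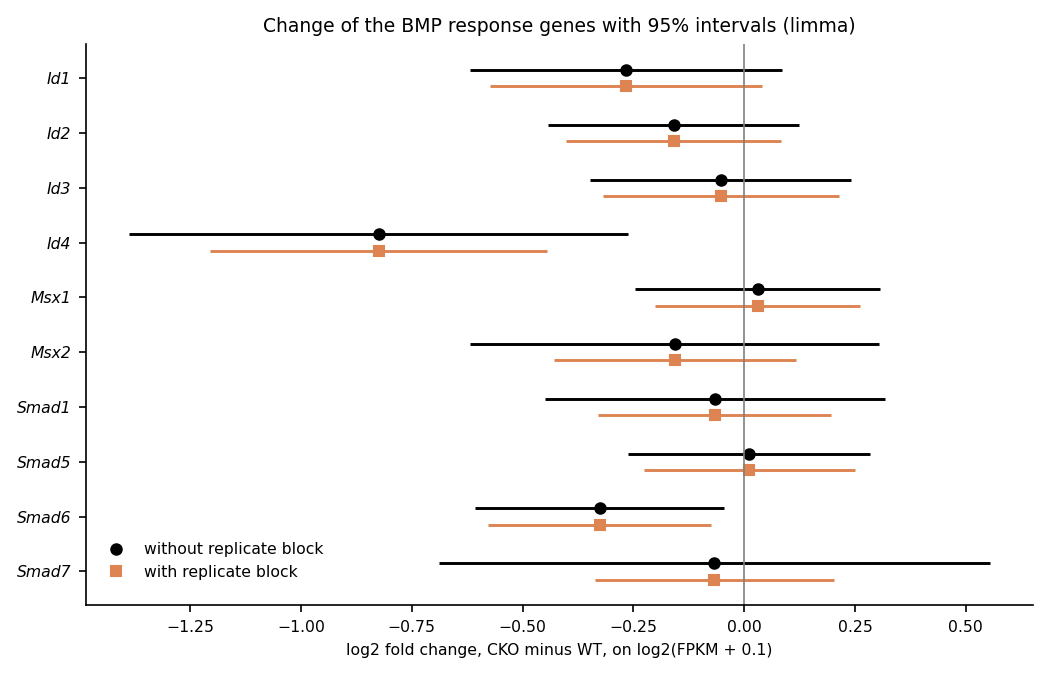
Log2 fold change of the 10 genes in CKO compared to WT, on log2(FPKM + 0.1), with limma 95% intervals without (black) and with (orange) the replicate number as a block. The intervals of *Id4* and *Smad6* lie below 0 in both fits, and those of the other 8 genes include 0.

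The difference between the libraries numbered 1 and the others was larger than that between genotypes for *Smad7*, *Msx2* and *Smad1*. It was also the larger, though both were small, for *Msx1* (0.14 against 0.03 on the log2 scale) and *Smad5* (-0.05 against 0.01). Averaged over WT and CKO, the libraries numbered 1 exceeded those numbered 2 and 3 by 0.68 for *Smad7*, 0.42 for *Msx2*, 0.41 for *Id4* and 0.32 for *Smad1* on the log2 scale. For *Smad7* this held in each genotype (0.48 in WT and 0.87 in CKO), whereas for *Id4* it was seen in CKO (0.85) and not in WT (-0.04). *Id1* and *Id2* went the other way, by -0.18 and -0.15. Of the 10 genes, 7 were higher in the libraries numbered 1, against 48.3% of all tested genes. By number, the median difference of the 10 genes between CKO and WT was -0.03, -0.36 and -0.18 for replicates 1, 2 and 3, while the medians over all tested genes lay between -0.01 and 0.0014.

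**Figure D3:**
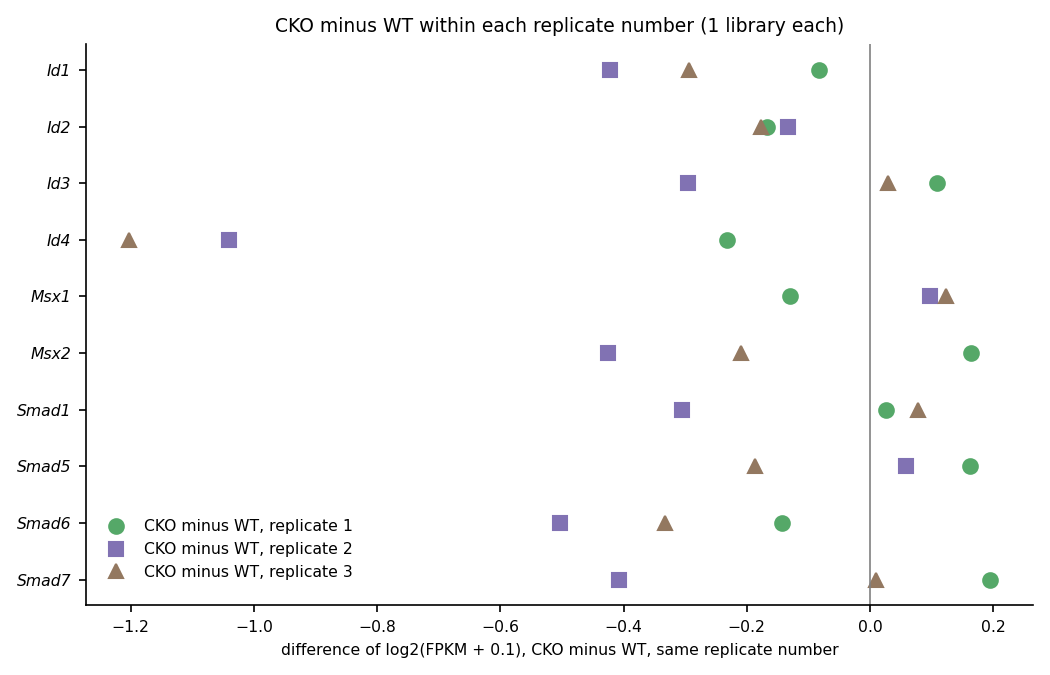
Difference in log2(FPKM + 0.1) between the CKO and the WT library of the same replicate number for each of the 10 genes, 1 library of each genotype per point. *Id4* is lower by over 1 in replicates 2 and 3 and by 0.23 in replicate 1. *Id3*, *Msx1*, *Msx2*, *Smad1* and *Smad7* differ in sign between replicates 1 and 2.

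By level per length, the order over all libraries was *Id1* (mean FPKM 207), *Id3* (81.3), *Id2* (77.1), *Msx1* (31.4), *Smad5* (31.3), *Smad7* (11.2), *Msx2* (8.04), *Smad6* (6.57), *Smad1* (5.69) and *Id4* (3.19). Neighbours whose ranges did not overlap were *Id1* and *Id3*, *Id2* and *Msx1*, *Smad5* and *Smad7*, and *Smad1* and *Id4*. In each library *Smad7* was nevertheless higher than *Msx2*, and *Msx2* higher than *Smad6*. Across the 6 libraries, which share the replicate 1 difference, the members most alike were *Smad1* and *Smad7* (Pearson's r = 0.97), *Msx2* and *Smad7* (0.94) and *Id4* and *Smad6* (0.91). Other pairs ran opposite, most of all *Id1* and *Msx1* (-0.73) and *Id2* and *Msx1* (-0.62). Among all tested genes, *Trp53inp2* was most like *Smad6* over the 6 libraries (r = 0.998). The number of tested genes with an r over 0.95 ran from 10 for *Id3* and *Smad5* to 277 for *Smad7*, with 153 for *Smad6* and 150 for *Id4*.

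Levels of other cell types' genes stand beside these values, since *Smad6* and *Id1* are also expressed in endothelium. The 10 endothelial markers, from *Pecam1* to *Flt1*, all had a lower mean log2 level in CKO, with a median log2 fold change of -0.31, and none passed the adjusted threshold. Their summed FPKM was 40.6, 29.7 and 32.0 in WT replicates 1 to 3, against 20.5, 31.3 and 29.7 in the CKO replicates, so the groups overlapped and CKO replicate 1 was the lowest. Of the 10, *Tie1* and *Egfl7* had all CKO values below all WT values, as *Smad6* and *Id1* did, and the others overlapped. Over all tested genes 8.86% lay lower in CKO without overlap. *Tie1*, an endothelial receptor tyrosine kinase gene, had 3.81, 2.84 and 3.28 in WT and 1.93, 2.33 and 2.47 in CKO (log2 fold change -0.54, limma unadjusted *p* = 0.0123, adjusted *p* = 0.430). *Egfl7*, which encodes a protein secreted by endothelial cells, had 2.76, 2.86 and 2.51 in WT and 1.76, 2.01 and 2.24 in CKO (log2 fold change -0.42, limma unadjusted *p* = 0.0225, adjusted *p* = 0.514). The part of endothelial cells in the values of *Smad6* and *Id1* was not tested. The 8 limb mesenchyme markers, which include *Prrx1* and *Tbx5*, all had a lower mean log2 level in CKO, with a median log2 fold change of -0.18. The lowest was *Tbx5*, a transcription factor gene of the forelimb, with an FPKM of 20.3, 19.1 and 19.2 in WT replicates 1 to 3, against 15.3, 7.30 and 9.58 in the CKO replicates. As for *Id4*, the groups did not overlap and CKO replicate 1 lay closest to WT. The log2 fold change of *Tbx5* was -0.93, with a limma adjusted *p* value of 0.358 without and 0.0073 with the replicate block, and the other 7 markers lay between -0.21 and -0.10. The summed FPKM of all 8 was 302, 313 and 303 in WT and 282, 246 and 274 in CKO, without overlap, and its part in the values of *Id1*, *Id4* and *Smad6* was not tested. The summed red cell FPKM was 37967, 63464 and 64210 in WT replicates 1 to 3, against 30999, 143320 and 85787 in the CKO replicates, so CKO replicate 2 was the highest. The summed FPKM of ectodermal markers was 48.2 to 79.2 in WT and 53.3 to 81.5 in CKO, that of muscle markers 12.4 to 45.8 and 30.3 to 64.8, that of macrophage markers 14.1 to 23.7 and 16.8 to 27.9, and that of Schwann and neural crest markers 3.28 to 7.94 and 6.56 to 8.29. Each of these 5 lists overlapped between the groups. Within replicate numbers 1, 2 and 3, however, the muscle sum was higher in CKO each time, at 30.3 against 12.4, 64.8 against 45.8 and 52.1 against 42.7. All 6 tested muscle genes had a higher mean log2 level in CKO (median log2 fold change 0.56), and 1 of them, the cardiac actin gene *Actc1*, passed with the replicate block (log2 fold change 1.05, limma adjusted *p* = 0.0266 with and 0.815 without it). The ectodermal sum was also higher in CKO within each number, at 53.3 against 48.2, 81.5 against 67.7 and 80.8 against 79.2. The part of red cells, muscle and ectoderm in the values of the BMP response genes was not tested.

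Upstream of the Smads, no gene that makes or receives the signal differed between WT and CKO limb buds beyond the adjusted threshold. Of 38 other genes of the pathway, 36 were tested, and none passed the adjusted threshold of limma with or without the replicate block, against 0.0650% of all tested genes without it and 2.81% with it. An unadjusted *p* value under 0.05 was seen for 2 of the 36, and for 8.31% of all tested genes. The median log2 fold change of the 36 genes was -0.06, with 15 higher and 21 lower. Among 6 tested ligand genes, *Bmp4*, a main BMP of limb mesenchyme and ridge, had 24.7, 21.6 and 21.5 in WT and 27.9, 23.4 and 28.2 in CKO. The difference was 0.23 on the log2 scale (95% interval -0.07 to 0.52, limma adjusted *p* = 0.703). *Bmp5* had a log2 fold change of -0.25 (limma adjusted *p* = 0.853). The 6 receptor genes lay between -0.17 for *Bmpr1b* and 0.18, with *Bmpr2*, the type II receptor, at 0.12 (limma adjusted *p* = 0.865 and 0.874 for the genes named).

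The antagonists, most of them secreted proteins that bind BMPs or related ligands, with the transmembrane pseudoreceptor gene *Bambi* among them, held the gene with the smallest *p* value of the ligand side. *Chrd*, which encodes chordin, had an FPKM of 0.580, 0.780 and 0.95 in WT replicates 1 to 3, against 0.483, 0.564 and 0.366 in the CKO replicates, without overlap at low levels. The difference was -0.60 on the log2 scale with a standard error of 0.26 (limma unadjusted *p* = 0.0477, adjusted *p* = 0.588). *Bmper* had -0.78 with a standard error of 0.54 (limma adjusted *p* = 0.777), and its libraries numbered 1 were the lowest of both groups, at 0.321 and 0.263. The 6 antagonist genes had a median of -0.08.

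Further down the pathway, 9 of the 10 other Smads and their modulators were tested, with log2 fold changes between -0.16 for the co-repressor gene *Ski* (limma adjusted *p* = 0.819) and 0.16 for *Smad2* (limma adjusted *p* = 0.828), which carries TGF-β and activin signals. *Smad9*, the third receptor-regulated Smad of the BMP branch, had a mean under 0.5 and was not tested. Its FPKM was 0.548, 0.576 and 0.547 in WT and 0.494, 0.380 and 0.242 in CKO. The E proteins that Id proteins bind had a median log2 fold change of -0.11 over 3 genes, with *Tcf3* at -0.11 and *Tcf4* at -0.11 (limma adjusted *p* = 0.876 and 0.889). Among 6 other BMP-responsive genes, *Atoh8*, a basic helix-loop-helix gene, had 7.19, 9.72 and 10.1 in WT and 7.71, 5.71 and 6.66 in CKO. The difference was -0.42 on the log2 scale with a standard error of 0.17 (limma unadjusted *p* = 0.0458, adjusted *p* = 0.579), and CKO replicate 1 lay above WT replicate 1, so the groups overlapped. *Hey1*, a Notch and BMP target, had 0.22 (95% interval -0.07 to 0.50, limma adjusted *p* = 0.710). The list had a median of -0.12.

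**Figure D4:**
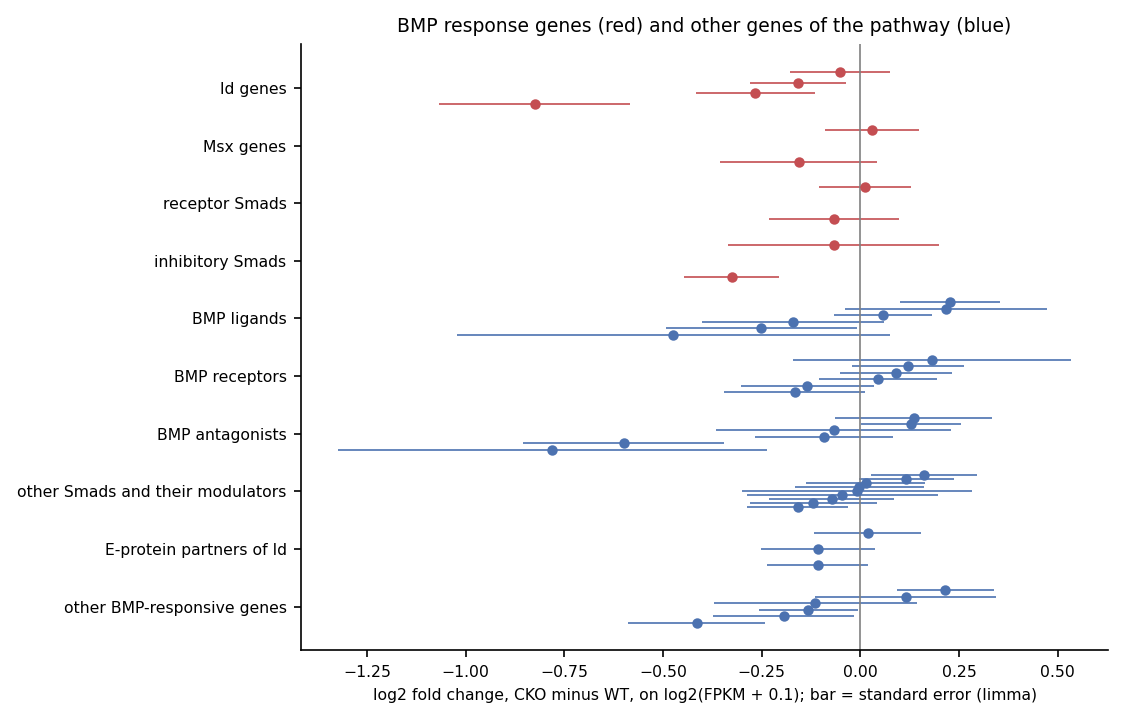
Log2 fold change in CKO compared to WT, on log2(FPKM + 0.1), with its limma standard error, for the 10 BMP response genes (red) and the 36 other tested genes of the pathway (blue), by role. *Id4* is the lowest point among the red genes at -0.83, and *Bmper* and *Chrd* are the lowest among the blue ones.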

How the data were processed

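RNA-seq of 3 WT and 3 CKO limb bud replicates was analysed; the other assays of the series were not used here. The authors deposited FPKM, 1 column per library. The submitters' processing notes name cutadapt 2.5, HISAT2 2.1.0, featureCounts 1.6.3 and mm10; the annotation is not given in the sources used here. The values were used as deposited. Multiplied by GENCODE vM21 merged exon lengths, they gave whole reads (tolerance 0.1) in all libraries for 92.6% of matched genes, which gave the depth. The size by which a library was divided was not the plain sum of these reads (reads over size 1.11 and 1.03 in CKO replicates 2 and 3, 0.947 to 0.968 in the others).

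The genes above a mean of 0.5 FPKM were compared on log2(FPKM + 0.1) with limma 3.58.1 (mean-variance trend) in R 4.3.3, with Benjamini-Hochberg adjustment over all 12305. Same-numbered libraries deviated together from their group means (r = 0.64, 0.44 and 0.27 across genes), and the numbers were taken to pair them. No label says what a number stands for. Crossed, WT replicate 2 with CKO replicate 3 had r = 0.495, and WT replicate 3 with CKO replicate 2 had 0.307. Because replicate 1 of both groups stood apart, this check cannot tell which libraries numbered 2 and 3 belong together. Blocked values are given where they change a call. Whether a biological replicate pools embryos is not given in the sources used here. Exact permutation tests used scipy 1.17.1. The fit was tested on simulated data with independent noise in each library. Those data held no difference between replicate numbers, so that test does not cover the replicate 1 difference seen here.

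The members, the pathway and marker lists (ligands, receptors, antagonists, other Smads and modulators, E proteins, other BMP-responsive genes; mesenchyme, endothelium, erythroid, ectoderm, muscle, macrophage and Schwann markers) and the tests were chosen with earlier results of these data known. All 10 members were named, and from each pathway list any gene past the threshold and the 2 with the smallest *p* value; *Smad9*, *Tbx5*, *Tie1*, *Egfl7* and *Actc1* were named after their values were seen. Alternatives were pseudocounts of 0.5 and 1, other filters, median-ratio and quantile scaling, no trend, an ordinary linear model, the replicate block and leaving out each library; replicates 2 and 3 alone and voom on recovered reads were added after seeing the data.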

Additional observations from a re-analysis of the deposited data

How the results depend on the processing

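Of the 10 genes, limma called 0 at an adjusted *p* value under 0.05 in 14 of 18 alternatives. It called 1 (*Id4*) with the replicate block, 1 with voom on recovered reads and the replicate block, 2 (*Id4* and *Smad6*) in replicates 2 and 3 alone, and 0 to 1 when each library was left out, the 1 being *Id4* without CKO replicate 1. The block changed no other call among the 10 genes. Their median log2 fold change ran from -0.22 (without CKO replicate 1) to 0.0072 (without CKO replicate 2), so its sign rested on the latter library. *Id1*, *Id2*, *Id4* and *Smad6* kept a negative log2 fold change in all 18 alternatives. With each library left out, the sign turned for *Id3* (-0.10 to 0.018), *Msx1* (-0.017 to 0.12), *Msx2* (-0.38 to 0.0045), *Smad1* (-0.20 to 0.059), *Smad5* (-0.044 to 0.090) and *Smad7* (-0.36 to 0.14). Quantile normalization gave -0.022 for *Msx1* and -0.033 for *Smad5*, and replicates 2 and 3 alone -0.064 for *Smad5*. Over all tested genes, 8 were called, against 14 after quantile normalization, 0 with an ordinary linear model (where 1108 had an unadjusted *p* value under 0.05, against 1022 with limma), 346 with the replicate block, 628 with voom and the block, 1851 in replicates 2 and 3 alone, and 1 to 23 when each library was left out, 23 without CKO replicate 1 and 1 without WT replicate 3. The cause was not tested. With 3 libraries a group, the intervals given above limit how precisely each difference is known.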
